A study of Homo sapiens with 8 samples.

Results

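G-quadruplexes (G4s) are 4-stranded DNA structures that guanine-rich sequence can fold into when runs of G stack in planar layers held together by monovalent cations. To map them, sonicated chromatin is pulled down with BG4, an antibody that recognises the folded structure, and sequenced next to chromatin that was not pulled down (G4 ChIP-seq). G4s in cells are best known from nucleosome-depleted, GC-rich promoters of active genes, where many transcription factors also bind.

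The intervals described here are the weakly reproduced G4 signals that returned in a second cell type. They were chosen by the deposited interval positions alone, as low-confidence intervals of K562 cells that held no K562 high-confidence peak and shared at least 1 bp with a low-confidence interval of HepG2 cells, none of the HepG2 intervals they touched holding a HepG2 high-confidence peak. The rule found 2321 recurring low-confidence intervals among the 19231 K562 low-confidence intervals outside the mitochondrial chromosome, or 12.1% (95% Wilson interval 11.6 to 12.5).

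K562 is a chronic myelogenous leukemia line with erythroid features, obtained from ATCC as CCL-243, and HepG2 is a hepatocellular carcinoma line with hepatocyte features. Both were grown asynchronously without treatment or genetic modification and cross-linked with formaldehyde, and the labels list 3 G4 ChIP libraries and 1 input library for each. The authors called peaks in each replicate and merged 8 replicates of K562 and 9 of HepG2. Stretches called in at least 2 replicates form the low-confidence list of a line, and those called in at least 5 (K562) or 6 (HepG2) form its high-confidence list. The paper describes the replicates of each line as technical replicates of 3 independent experiments. A stretch called in 2 replicates can therefore rest on 1 experiment. Each list holds the chromosome, start and end of its intervals on hg19 and no read count, peak height or replicate number. Depth is therefore unknown, the spread between replicates could not be measured, and the identity of the lines could not be checked against marker genes. All intervals and tests below describe these 4 lists, each of which pools the replicates of 1 line. An interval is not a biological replicate, and neighbouring intervals are not independent, so p-values measure the counting of intervals in these lists and not the spread between cultures.

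Some sequences show what the recurring intervals contain. A G4 motif was defined as 4 runs of at least 3 G separated by loops of 1 to 7 bases, on either strand. The recurring interval with the most motifs upstream of a gene lay at chr20:1206408-1206758, with its centre 105 bp upstream of RAD21L1, a gene of a meiotic cohesin subunit. It held 7 non-overlapping motifs, all with the G-run on the minus strand. The stretch it shared with HepG2, chr20:1206408-1206592, is shown on the plus strand with motif bases in capitals, so that the G-runs of the other strand appear as runs of C. Its first motif is also shown as read on the minus strand, with G-runs in capitals.
RAD21L1 upstream, shared stretch: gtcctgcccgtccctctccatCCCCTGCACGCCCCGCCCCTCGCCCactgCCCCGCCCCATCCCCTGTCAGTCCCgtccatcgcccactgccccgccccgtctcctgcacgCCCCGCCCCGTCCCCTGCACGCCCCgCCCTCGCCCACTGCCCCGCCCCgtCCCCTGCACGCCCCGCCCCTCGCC
RAD21L1 upstream, first motif, minus strand: GGGcgaGGGGcGGGGcgtgcaGGGG

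MSRB2 codes for a mitochondrial methionine sulfoxide reductase, and its promoter carried the recurring interval with the most motifs among the genes named below. The interval lay at chr10:23384269-23384510, was 242 bp wide and shared 235 bp with its HepG2 counterpart. Its 5 motifs all had G on the plus strand, which is printed with motif bases in capitals.
MSRB2 promoter interval: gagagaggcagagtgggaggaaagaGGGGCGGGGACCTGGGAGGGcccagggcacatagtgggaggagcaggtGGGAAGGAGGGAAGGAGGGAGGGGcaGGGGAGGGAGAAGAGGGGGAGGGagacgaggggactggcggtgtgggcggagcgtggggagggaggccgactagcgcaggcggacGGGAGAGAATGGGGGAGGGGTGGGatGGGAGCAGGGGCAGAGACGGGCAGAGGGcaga

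Most recurring intervals held no such motif. The interval upstream of RPS14, which codes for a protein of the small ribosomal subunit, is of that kind and was picked for display after its values were seen. It lay at chr5:149829462-149829687, and all of its 226 bp were shared with HepG2. The plus strand is printed, and the capitals mark 1 match to the ETS core CGGAAG and 1 match to the GC box GGGCGG, both on the minus strand, described further below.
RPS14 promoter interval: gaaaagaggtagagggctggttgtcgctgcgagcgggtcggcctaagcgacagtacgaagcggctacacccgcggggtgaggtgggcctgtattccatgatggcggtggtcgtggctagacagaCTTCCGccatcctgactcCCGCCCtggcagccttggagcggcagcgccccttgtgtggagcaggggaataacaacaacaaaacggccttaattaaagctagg

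Motifs were not always in the stretch that the 2 lines shared. The intronic interval with the most motifs, chr22:19958809-19959462 in ARVCF, a catenin family gene, held 3 motifs and shared 154 bp with HepG2 at chr22:19959080-19959233, a stretch without a motif. These motifs are printed 5′ to 3′ on their G-rich strands with runs of G in capitals.
ARVCF intron, motif 1, plus strand: GGGcctgctGGGcccGGGGGGaGGGG
ARVCF intron, motif 2, plus strand: GGGGGGacaGGGcaGGGGcaGGG
ARVCF intron, motif 3, minus strand: GGGccctGGGGtacagctGGGttgtGGGG

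Of the K562 low-confidence intervals outside the mitochondrial chromosome, 10520 held no K562 high-confidence peak. Of these, 22.1% (2321) recurred by the rule, 66.3% (6973) met no HepG2 interval and are called K562-only, and 11.7% (1226) met a HepG2 interval that held a high-confidence peak there. Since the rule itself fixed these counts, they are given as a description. The recurring K562 intervals met 2338 distinct HepG2 intervals, which is 11.6% of the 20087 HepG2 low-confidence intervals without a high-confidence peak of that line. Of the recurring intervals, 2263 (97.5%) met 1 HepG2 interval, 55 met 2 and 3 met 3.

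The overlap was usually substantial. The longest stretch shared with a HepG2 interval had a median of 107 bp (95% interval of the median 105 to 110) in K562 intervals with a median width of 155 bp. The median K562 interval was covered over 78.6% of its width, and the centres of the 2 intervals lay within 100 bp of each other in 90.5% of cases. The K562 interval lay wholly inside its HepG2 partner in 629 cases and the HepG2 interval wholly inside the K562 one in 529. Shared stretches had a median of 114 bp at promoters and 99.0 bp elsewhere.

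The widest recurring interval, at chr22:19162776-19163680 in the 3′ UTR annotation of SLC25A1, the gene of the mitochondrial citrate carrier, was 905 bp wide and shared 91 bp. The longest shared stretch, 423 bp, was at chr16:3285029-3285510, upstream of the zinc finger gene ZNF200. At the other end, 3 members were 1 bp wide. Just inside the rule were 6 members that shared exactly 1 bp, among them 1-bp intervals at chr1:213224970 near RPS6KC1 and chr2:62132799 near COMMD1 and a 91-bp interval at chr17:76108852-76108942 near TMC6. Just outside it were 10 K562-only intervals that adjoined a HepG2 interval with 0 bases between, such as chr1:1019160-1019316 near C1orf159, chr1:27878132-27878137 near AHDC1 and chr1:161369216-161369307. Only 62 of the members (2.67%) shared 10 bp or less, and 339 K562-only intervals (4.86%) had a HepG2 low-confidence interval within 100 bp.

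High-confidence peaks were near a minority of the recurring intervals. A K562 high-confidence peak lay within 1 kb of 15.6% of them and a HepG2 one within 1 kb of 12.5%, and 18.9% had either. The corresponding shares of the K562-only intervals were 18.4% and 9.18%. These distances share their readout with the rule and were not tested. Repeated sequence was rare in every class. In windows that reached 150 bases to each side of an interval's centre, fewer than 50% of the 31-base words occurred once in the genome for 1.25% of recurring, 1.23% of K562-only, 1.51% of HepG2-only and 0.562% of common high-confidence intervals.

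The first question was where the recurring intervals lie relative to genes. Disjoint classes of intervals were set beside them: the 6973 K562-only intervals, 15348 HepG2-only low-confidence intervals that met no K562 interval, and 4629 K562 intervals that held a high-confidence peak and met a HepG2 interval that also held one, here called common high-confidence intervals. A promoter was the 1 kb upstream of a transcription start site (TSS) of any annotated transcript.

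Recurring intervals were more often at promoters than intervals seen weakly in 1 line, and less often than common high-confidence ones. They overlapped a promoter in 1396 of 2321 cases (60.1%, 95% Wilson interval 58.1 to 62.1), against 39.6% of K562-only, 26.3% of HepG2-only and 92.4% of common high-confidence intervals. The difference from K562-only intervals was 20.6 percentage points (95% interval 18.3 to 22.8, two-sided Fisher's exact test adjusted over 9 contrasts, p = 2.77e-66). From HepG2-only intervals it was 33.9 points (31.8 to 36.0, Fisher's exact test, adjusted p = 3.66e-219), and from common high-confidence intervals -32.2 points (-34.4 to -30.1, Fisher's exact test, adjusted p = 6.59e-223). The share was above that of K562-only and of HepG2-only intervals on 23 of 23 chromosomes with at least 20 intervals of each class. Of the recurring promoter intervals, 83.4% touched the promoter of a protein-coding transcript, against 69.3% for K562-only and 61.5% for HepG2-only promoter intervals.

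By its centre, a recurring interval lay upstream of a TSS in 58.0% of cases, in an intron in 21.7%, between genes in 11.6%, in an exon of a non-coding transcript in 2.63%, in a coding exon in 2.50%, in a 5′ UTR in 1.85% and in a 3′ UTR in 1.68%. Introns held 33.3% of K562-only and 43.2% of HepG2-only intervals. The recurring intervals were also tighter around the TSS. Among those centred within 1 kb of a TSS on either side, 68.0% of all, the median position was 20 bp upstream (95% interval 25 to 16 bp upstream) and 62.7% lay within 100 bp. For K562-only intervals 51.1% were centred within 1 kb, and of those 44% lay within 100 bp. The plot of positions around the TSS shows the same order of the classes, with the 50-bp bin just upstream as the highest bin of each.

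**Figure D1:**
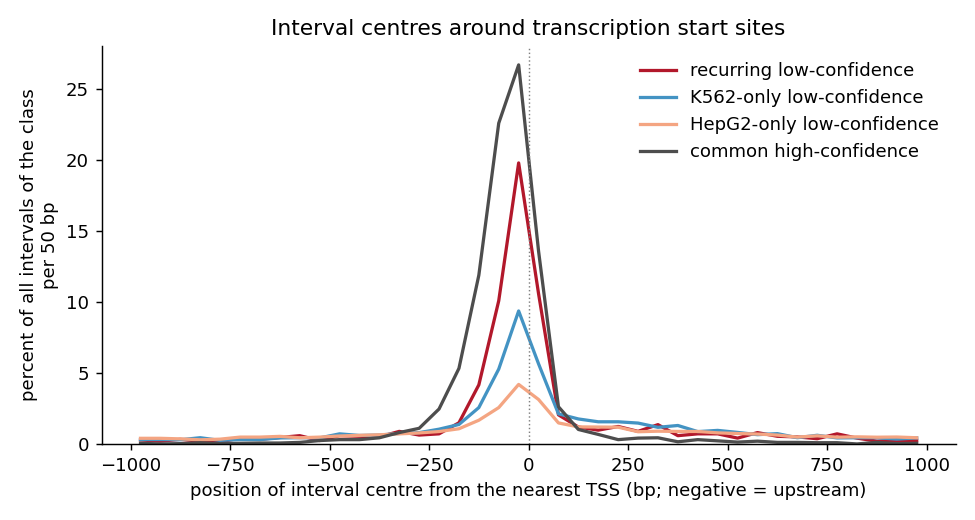
Percent of all intervals of a class per 50-bp bin (vertical axis) against the position of the interval centre relative to the nearest TSS in bp, negative upstream (horizontal axis), for 2321 recurring, 6973 K562-only, 15348 HepG2-only and 4629 common high-confidence intervals. The recurring intervals peak just upstream of the TSS, between the common high-confidence intervals and both low-confidence classes of 1 line.

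The next question was whether the recurring intervals carry the sequence from which G4s form. A G4 motif inside the interval was as frequent as in K562-only intervals within a narrow margin, about 2 times as frequent as in HepG2-only intervals and rarer than in common high-confidence intervals. It was present in 367 of 2321 recurring intervals (15.8%, 14.4 to 17.4), of which 299 held 1 motif, 52 held 2 and 16 held 3 or more. The difference from K562-only intervals (15.3%) was 0.553 points (95% interval -1.12 to 2.30, two-sided Fisher's exact test, adjusted p = 0.528). From HepG2-only intervals (7.83%) it was 7.99 points (6.49 to 9.58, Fisher's exact test, adjusted p = 1.94e-31), and from common high-confidence intervals (46.2%) -30.4 points (-32.4 to -28.3, Fisher's exact test, adjusted p = 4.13e-147).

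The motif comparison changed when interval width was taken into account, and the cause of this was not tested. Recurring intervals with a motif had a median width of 193 bp and those without one 148 bp. Common high-confidence intervals had a median width of 362 bp, K562-only intervals 130 bp and HepG2-only intervals 121 bp. With the difference weighted over width classes of 50 bp, the gap to common high-confidence intervals became 0.124 points (95% interval -3.45 to 3.69). That value joined 4.22 points at promoters (0.00395 to 8.43) and -8.66 points outside them (-16.3 to -1.03). The quartiles of width were 114 and 199 bp in recurring and 286 and 463 bp in common high-confidence intervals. Width-weighted differences between these classes therefore rest on the widths found in both, and do not describe the narrower recurring or the wider common intervals. The small excess over K562-only intervals turned into -2.48 points (-4.14 to -0.817). By location it was -6.16 points at promoters (-8.71 to -3.61) and -2.85 points outside them (-4.90 to -0.794). In the window of 150 bases to each side of the centre, 28.7% of recurring intervals held a motif, against 31.3% of K562-only, 19.5% of HepG2-only and 41.0% of common high-confidence ones. The difference from common high-confidence intervals in this window was -12.4 points (-14.7 to -10.0, two-sided Fisher's exact test, adjusted p = 8.20e-24). Weighted by width it was -0.682 points (-4.55 to 3.19). A window of the same length around the TSSs of protein-coding transcripts, 250 bases before to 50 after, held a motif in 28.6% of 78569 cases. The recurring intervals to set beside it are those at promoters, of which 32.7% held a motif in their window. Windows of neighbouring TSSs can overlap.

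At promoters the recurring intervals held fewer motifs in the window than K562-only promoter intervals did. The shares were 32.7% and 41.7%, a difference of -9.0 points (95% interval -12 to -5.90, two-sided Fisher's exact test, adjusted p = 2.62e-08). Outside promoters they were 22.5% and 24.4% (difference -1.94 points, -4.83 to 1.14, Fisher's exact test, adjusted p = 0.246). With the looser definition of 4 runs of at least 2 G, 83.8% of the recurring intervals matched, against 75.8% of K562-only intervals, a difference of 7.94 points (6.09 to 9.70) that fell to 1.93 points (0.294 to 3.57) when weighted by width.

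Of the 367 recurring intervals with a motif, 219 (59.7%) had a whole motif inside a shared stretch, while the median such interval was shared over 69.0% of its width. The motifs had a median length of 24.0 bases and ranged from 15 to 36. The G-rich strand was the plus strand in 178 intervals and the minus strand in 173, and 16 had motifs on both. At promoters with motifs on 1 strand only, the G-rich strand was the coding strand of the nearest gene in 136 of 263 intervals (51.7%, 45.7 to 57.7), against 54.1% (50 to 58.1) in K562-only intervals.

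CpG islands, stretches of DNA rich in unmethylated CpG dinucleotides, surround the TSSs of most broadly expressed genes. The window of 150 bases to each side of an interval's centre was called CpG-island-like when its GC content was at least 50% and its observed over expected CpG ratio at least 0.6. Of the recurring intervals 56.8% (54.8 to 58.8) were CpG-island-like, against 36.8% of K562-only, 14.0% of HepG2-only and 91.1% of common high-confidence intervals. The differences were 20 points (95% interval 17.7 to 22.3, two-sided Fisher's exact test, adjusted p = 1.01e-63), 42.8 points (40.7 to 44.9) and -34.2 points (-36.4 to -32.1, Fisher's exact test, adjusted p = 7.95e-233). The GC content of the interval was close in the recurring and K562-only classes, with medians of 65.8% and 65.1%, while the median CpG ratio of the window was 0.681 in the first and 0.413 in the second. Among promoter intervals 80.8% of the recurring and 64.4% of the K562-only ones were CpG-island-like (difference 16.4 points, 13.6 to 19.1). Outside promoters the shares were 20.6% and 18.7%, a difference of 1.97 points (-0.793 to 4.93) that did not pass the test (Fisher's exact test, adjusted p = 0.213).

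**Figure D2:**
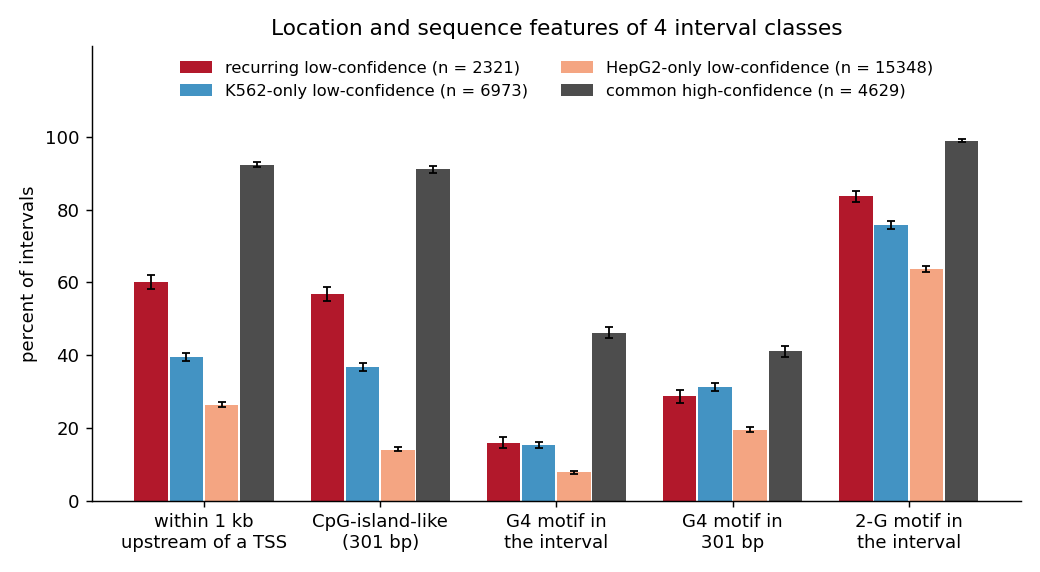
Percent of intervals (vertical axis) at a promoter, in a CpG-island-like window, and with a G4 motif by 3 definitions (horizontal axis), for the 4 interval classes, with 95% Wilson intervals as error bars. Recurring intervals lie between the low-confidence intervals of 1 line and common high-confidence intervals at promoters (60.1%) and CpG-island-like windows (56.8%), and beside K562-only intervals for the G4 motif (15.8% and 15.3%).

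Seen from the side of K562, the share of weak intervals that recurred was 27.5% at promoters and 17% elsewhere, 28.0% in CpG-island-like windows and 17.3% outside them, and 22.6% with and 22% without a motif. It was highest, at 31.3% (29.6 to 33.1), for CpG-island-like promoter intervals without a motif, which made up 38.1% of the recurring intervals. It was 13.7% (9.62 to 19) for CpG-island-like intervals with a motif outside promoters. Members that were not at a promoter, not CpG-island-like and without a motif numbered 671, or 28.9%.

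Short sequences that transcription factors recognise were then counted in the same windows, on both strands, separately for promoter intervals and others. For promoters of broadly expressed genes the letters searched were GGGCGG, the GC box of SP and KLF factors, CCAAT, which NF-Y binds, CGGAAG, the core of sites of ETS factors, and GCATGCGC, part of the site of the respiratory gene regulator NRF1. The cAMP response element (CRE) was searched as TGACGTCA, the site of the ubiquitous zinc finger factor YY1 as AAGATGGC, and that of the cell cycle factors of the E2F family as TTCCCGC. For inducible and lineage factors, AP-1 sites were searched as TGANTCA. The letters for GATA factors, among them the erythroid regulator GATA1, were AGATAA. Those for the hepatocyte regulator HNF4 were CAAAGTCCA. None of these contains another. A match is a description of the sequence and does not show that a factor is bound. Of 60 contrasts, 29 had an adjusted p under 0.05.

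The ETS, NRF1 and YY1 letters were more frequent in recurring than in K562-only promoter intervals. The ETS core was in 34.6% of them and in 21.5% of K562-only ones (difference 13.1 points, 95% interval 10.2 to 16.0, two-sided Fisher's exact test adjusted over 60 contrasts, p = 2.86e-18). HepG2-only promoter intervals held it in 16.2%, coding promoter windows as a whole in 22.3%, and common high-confidence intervals in 36.5%, from which the recurring ones differed by -1.85 points (-4.70 to 1.06). The NRF1 letters were in 6.09% against 2.1% of K562-only intervals (difference 3.99 points, 2.70 to 5.44, Fisher's exact test, adjusted p = 9.88e-10), and in 3.46% of all coding promoter windows. The YY1 letters were in 6.16% against 2.46% (difference 3.70 points, 2.38 to 5.18, Fisher's exact test, adjusted p = 4.13e-08), and in 3.56% of all coding promoter windows. Outside promoters the recurring and K562-only shares were 10.2% and 10.5% (ETS), 1.19% and 0.902% (NRF1), and 0.757% and 1.02% (YY1). None of these differences passed the test. The classes also differed in distance to the TSS and in the share at coding promoters, and neither was matched.

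CCAAT was in 24.4% of recurring, 18.9% of K562-only, 24.5% of HepG2-only and 48.2% of common high-confidence promoter intervals, and in 33.4% of all coding promoter windows. Its difference from K562-only intervals was 5.55 points (2.90 to 8.27, Fisher's exact test, adjusted p = 0.000134). The GC box was in 70.1%, 65.2%, 42.7% and 86.9%, a difference of 4.95 points (1.93 to 7.90) from K562-only intervals. The CRE was in 3.44% of recurring and 2.03% of K562-only promoter intervals (Fisher's exact test, adjusted p = 0.0177), and the E2F letters in 9.81% and 8.37% (adjusted p = 0.190 by the same exact test). Since the classes differ in CpG content, the comparison with K562-only intervals was repeated within CpG-island-like promoter windows, a split chosen after the first shares were seen. There the ETS core was in 38.8% of recurring and 26.8% of K562-only windows, the NRF1 letters in 7.45% and 2.98% and the YY1 letters in 7.18% and 3.32%. CCAAT was in 24.3% and 16.4% (difference 7.87 points, 4.86 to 10.9, Fisher's exact test adjusted over 20 contrasts, p = 1.27e-06), and the CRE in 4.26% and 2.53% (p = 0.0358 by the same adjusted exact test). The E2F letters were in 11.3% and 10.3%, which did not pass the test (difference 1.06 points, -1.23 to 3.44). The GC box was in 77.4% and 80.6%, so its direction turned, with an interval of the difference of -6.29 to -0.182 points (Fisher's exact test adjusted over 20 contrasts, p = 0.0879).

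The GATA letters were rarer in recurring than in K562-only intervals, and the HNF4 letters rarer than in HepG2-only ones. Outside promoters the GATA letters were in 5.73% of recurring and 15.8% of K562-only intervals, a difference of -10.1 points (95% interval -11.8 to -8.10, two-sided Fisher's exact test, adjusted p = 2.77e-17). HepG2-only intervals held them in 7.40%, from which recurring intervals differed by -1.68 points (-3.09 to 0.0775, Fisher's exact test, adjusted p = 0.105). Weighted by width, that difference was -2.14 points (-3.72 to -0.552). In windows that were neither at promoters nor CpG-island-like the GATA shares were 5.45% in recurring and 18.5% in K562-only intervals (difference -13.0 points, -15.0 to -10.8). Common high-confidence intervals outside promoters held the GATA letters in 5.97% (difference -0.236 points, -3.50 to 2.41, Fisher's exact test, adjusted p = 0.924). At promoters the recurring intervals held them in 3.65%, above the 2.15% of common high-confidence intervals (Fisher's exact test, adjusted p = 0.00693) and below the 6.05% of K562-only ones (adjusted p = 0.00255 by the same exact test). Weighted by width, the difference from common high-confidence intervals was 0.211 points (-1.27 to 1.69). The GATA letters were in 4.91% of HepG2-only promoter intervals and in 8.17% of all coding promoter windows, above the share of every promoter class. The HNF4 letters were in 4 of 925 recurring intervals outside promoters (0.432%), 9 of 4213 K562-only (0.214%) and 220 of 11317 HepG2-only intervals (1.94%). The difference from the HepG2-only intervals was -1.51 points (-1.89 to -0.796, Fisher's exact test, adjusted p = 0.000923), and that from the K562-only intervals did not pass the test (adjusted p = 0.344 by the same exact test). The AP-1 letters were in 10.8% of recurring, 13.1% of K562-only and 10.2% of HepG2-only intervals outside promoters, and neither difference passed the test (Fisher's exact test, adjusted p = 0.0968 and 0.643). At promoters they were in 5.09% of recurring and 3.11% of common high-confidence intervals (difference 1.98 points, 0.798 to 3.34, Fisher's exact test, adjusted p = 0.00255). From HepG2-only promoter intervals the AP-1 share of recurring ones differed by -1.91 points (-3.24 to -0.427, Fisher's exact test, adjusted p = 0.0244). From K562-only promoter intervals it differed by -1.73 points (-3.17 to -0.171), which did not pass the test (adjusted p = 0.0595 by the same exact test).

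**Figure D3:**
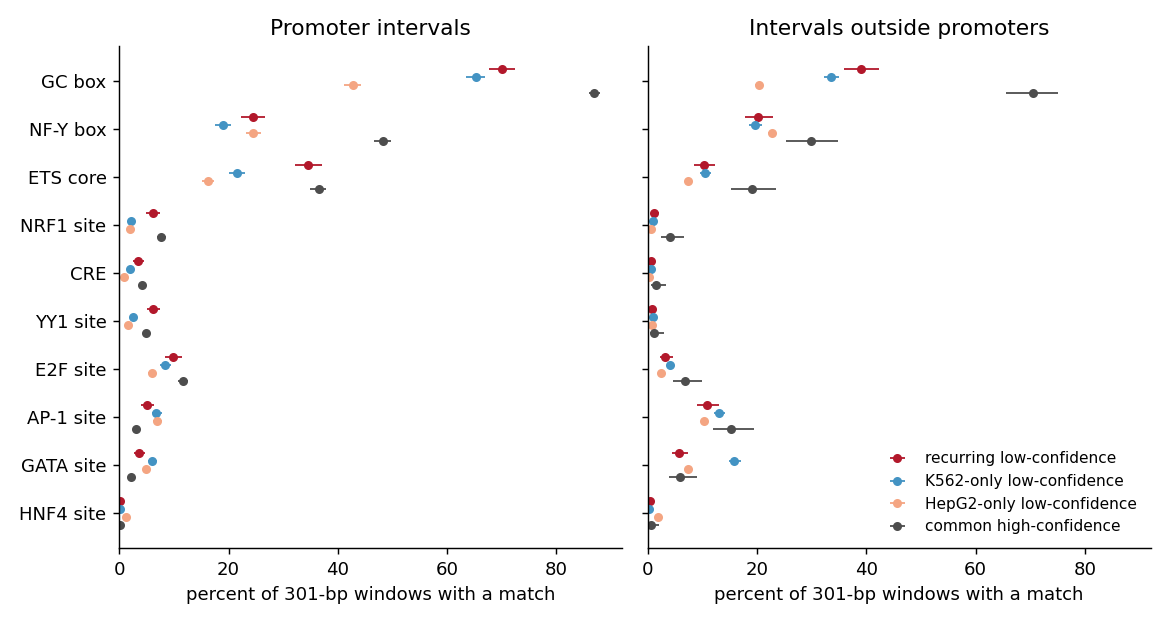
Percent of windows of 150 bases to each side of the centre with a match to the letters of 10 factors (horizontal axis) in promoter intervals (left) and other intervals (right) of the 4 classes, with 95% Wilson intervals as bars. At promoters the ETS, NRF1 and YY1 letters of recurring intervals lie near those of common high-confidence intervals, and outside promoters the GATA letters are highest in K562-only intervals (15.8%) and low in recurring ones (5.73%).

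The genes behind the recurring promoter intervals were counted next. Of 20163 protein-coding genes, 1369 had a recurring interval within 1 kb upstream of one of their TSSs, or 6.79%. The TSS nearest to such an interval could belong to another gene, as with ACYP2 for PSME4 and VPS52 for RPS18. A further G4 interval, in either line, was present upstream of many of them. A high-confidence peak of K562 was upstream of 367 of these genes and one of HepG2 upstream of 309, and 432 (31.6%) had either. For 715 (52.2%, 49.6 to 54.9) the recurring interval was the only G4 interval upstream in both lines. By gene, 1122 (5.56%) had upstream intervals of low confidence only in both lines, against 4720 (23.4%) with a high-confidence peak in both, and 931 of those 1122 (83.0%) had a recurring interval. A recurring interval upstream of a coding gene was upstream of 2 or more such genes in 202 of 1259 cases.

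The 20 genes with the longest shared stretches among those 715 were named by that length alone. ZNF200 was first, with 423 bp shared between a K562 interval of 482 bp and a HepG2 interval of 423 bp. UQCC4, which codes for an assembly factor of respiratory complex III, followed with 305 bp at chr16:1470698-1471002. TTLL1, a tubulin polyglutamylase gene, shared 286 bp at chr22:43485241-43485526, an interval of 74.8% GC without a motif. THUMPD3, a tRNA methyltransferase gene, shared 258 bp, and SINHCAF, of the SIN3 histone deacetylase complex, shared 257 bp. PSME4, which codes for the proteasome activator PA200, shared 254 bp of 77.6% GC at chr2:54198076-54198329. BBS4, a gene of the ciliary BBSome, and HIGD2B had the same interval upstream, sharing 253 bp.

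The rest of these genes shared 222 to 250 bp. They were SUMF2, ENSG00000273269, CAB39, which codes for a partner of the kinase LKB1, MSRB2, DYNLRB1, a dynein light chain gene, BRICD5, TSPYL2, HIKESHI, a gene of nuclear import of HSP70, RPS14, BCAS4, ZSCAN5A and IREB2, which codes for an iron-responsive RNA-binding protein. A G4 motif lay in the interval of 4 of the 20 genes, namely MSRB2 with 5, BRICD5 with 2, ZSCAN5A with 2 and SUMF2 with 1.

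Gene groups were compared with the share of 6.79% over all protein-coding genes. These counts describe the groups and were not tested. Among 21 groups, 7 had a Wilson interval wholly above that share and 3 wholly below it. The groups above it were mitochondrial ribosomal proteins, nuclear subunits of oxidative phosphorylation, cytosolic ribosomal proteins, proteasome subunits, double-strand break repair, splicing factors and ZNF genes. These groups also had G4 intervals of any kind upstream more often. No interval of either line was upstream of 8.33% (proteasome) to 26.4% (ZNF) of their genes, against 43.5% of all protein-coding genes. A K562 high-confidence peak was upstream of 37.8% (ZNF) to 60.9% (double-strand break repair) of them. Of all protein-coding genes, 23.4% had a high-confidence peak upstream in both lines. A further 7.99% had a K562 peak with only low-confidence HepG2 intervals, and 3.17% a K562 peak with no HepG2 interval. The ZNF share was thus close to that of all genes. Genes for mitochondrial ribosomal proteins had a recurring interval upstream in 15 of 78 cases (19.2%, 12 to 29.3), in 13 of which no other G4 interval was upstream. MRPL18 shared 293 bp at chr6:160211267-160211559, MRPS31 192 bp, MRPS15 183 bp and MRPL58 174 bp, all without a motif. Most recurring promoter intervals also lacked a motif, which 19.8% of them held. Nuclear genes of oxidative phosphorylation had a recurring interval in 18 of 97 cases (18.6%, 12.1 to 27.4), among them ATP5MJ of ATP synthase (209 bp shared, 1 motif), SDHC of complex II (186 bp), NDUFA12 of complex I (168 bp) and UQCR11 of complex III (155 bp).

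Cytosolic ribosomal protein genes had a recurring interval in 13 of 88 cases (14.8%, 8.84 to 23.7), with RPSA at 249 bp shared, RPS14 at 226 bp, RPL10 at 194 bp and RPS18 at 149 bp. Like most recurring promoter intervals, these 4 held no motif. Proteasome genes had a recurring interval in 7 of 48 (14.6%, 7.25 to 27.2), including PSMC6 of the regulatory particle with 208 bp and PSMA3 of the core particle with 167 bp. Double-strand break repair genes had one in 7 of 46 (15.2%, 7.57 to 28.2), such as FANCC of the Fanconi anemia pathway with 176 bp and the ligase gene LIG4 with 163 bp. Splicing genes had one in 14 of 123 (11.4%, 6.90 to 18.2), with SRSF11 at 174 bp and PRPF3 at 172 bp, and ZNF genes in 50 of 508 (9.84%, 7.55 to 12.7), with ZNF524 at 235 bp and ZNF688 at 212 bp.

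The groups wholly below the share over all genes were developmental transcription factors, hepatocyte genes and clustered protocadherins. Homeobox and other developmental transcription factor genes had a recurring interval in 4 of 192 cases (2.08%, 0.813 to 5.23), namely TBX6, TBX21, SOX18 and FOXK2, the last with 2 bp shared. Hepatocyte genes had one in 2 of 165 (1.21%, 0.333 to 4.31), CYP4V2 and the complement gene C5, and clustered protocadherins in 0 of 53 (upper limit 6.76%). The nearest TSS was that of a neighbour for CYP4V2 (FLJ38576), C5 (CNTRL) and SOX18 (TCEA2). No G4 interval of either line was upstream of 66.1% of the developmental, 63.6% of the hepatocyte and 100% of the protocadherin genes, against 43.5% of all protein-coding genes.

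The Wilson intervals of all other groups included the share over all genes. The erythroid group had 1 of 51 (1.96%, 0.347 to 10.3), EPB41L4B, whose symbol matched the group by its family name, and 43.1% of its genes had no G4 interval upstream. Cyclin and CDK genes had 8 of 62 (12.9%, 6.69 to 23.4), with CDK11B at 217 bp, CDK2 at 205 bp and CDK8 at 192 bp. Chromatin regulators had 13 of 120 (10.8%), with CHD9 at 248 bp and the histone methyltransferase gene KMT2B at 196 bp, nuclear receptors 6 of 48 (12.5%), with RARA at 121 bp, and translation factors and tRNA synthetases 8 of 90 (8.89%), with FARS2 at 309 bp. Deubiquitinases of the USP family had 5 of 51 (9.80%), DNA replication genes 3 of 54 (5.56%), apoptosis genes 2 of 39 (5.13%), RAB GTPases 3 of 62 (4.84%) and SP and Kruppel-like factors 0 of 27 (upper limit 12.5%). Of 16 genes for helicases linked to G4s, ERCC3 had a recurring interval of 211 bp with 177 bp shared and DHX9 one of 158 bp with 133 bp shared.

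**Figure D4:**
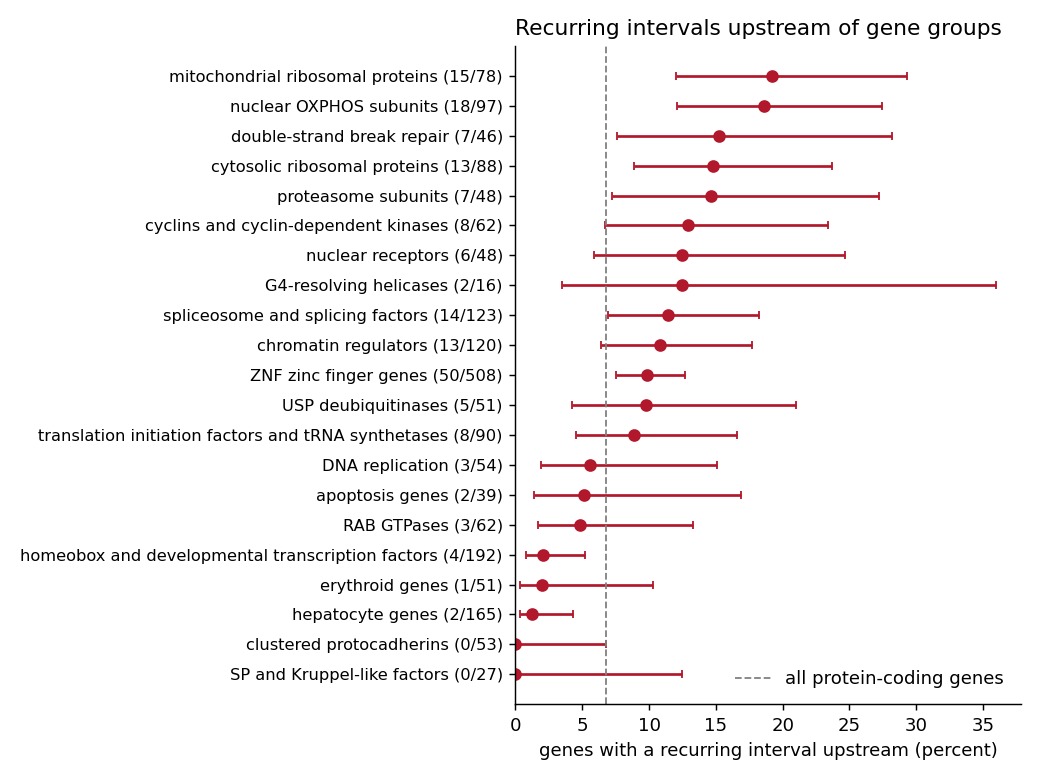
Percent of the genes of 21 groups with a recurring interval within 1 kb upstream of a TSS (horizontal axis), with 95% Wilson intervals as bars and, in brackets, the genes with such an interval over all genes of the group. The dashed line is the share over all protein-coding genes (6.79%), which the bars of mitochondrial ribosomal protein genes (19.2%) and oxidative phosphorylation genes (18.6%) exceed and that of hepatocyte genes (1.21%) stays below.

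Recurrence varied moderately between chromosomes. The share of K562 low-confidence intervals without a high-confidence peak that recurred was highest on chromosome 17 (29.8%, 26.4 to 33.4, 199 of 668) and chromosome 13 (28.9%, 20.8 to 38.6, 28 of 97). It was lowest on chromosome 22 (11.3%, 9.13 to 13.8, 80 of 711) and chromosome 7 (16.4%, 13.5 to 19.7, 90 of 549). The Wilson intervals of chromosomes 17 and 13 overlapped each other, and that of chromosome 22 overlapped those of chromosomes 7 and Y alone. The number of HepG2 low-confidence intervals per Mb was 31.8 on chromosome 17, 2.91 on chromosome 13, 17.7 on chromosome 22 and 6.91 on chromosome 7. Over 23 chromosomes the recurring share and this density had Pearson's r of 0.0427 and Spearman's rho of -0.173, given as a description of chromosomes that share the same lists. Copy number differs between these aneuploid lines and was not measured here.

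The recurring intervals were spread over 957 blocks of 1 Mb, of which 449 held 1 of them and 115 held 5 or more, together 859 intervals. The fullest block, chromosome 17 from 79000001 to 80000000, held 21 recurring intervals of 57 weak K562 intervals, and 5 were at promoters. Near them were the small MAF gene MAFG, ARHGDIA and ASPSCR1. The next, chromosome 1 from 1000001 to 2000000, held 20 of 112, and 10 were at promoters, near genes such as DVL1, ATAD3B and INTS11. Over the whole genome 22.1% of weak K562 intervals recurred, a share that the chromosome 17 block exceeded and the chromosome 1 block did not reach.

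**Figure D5:**
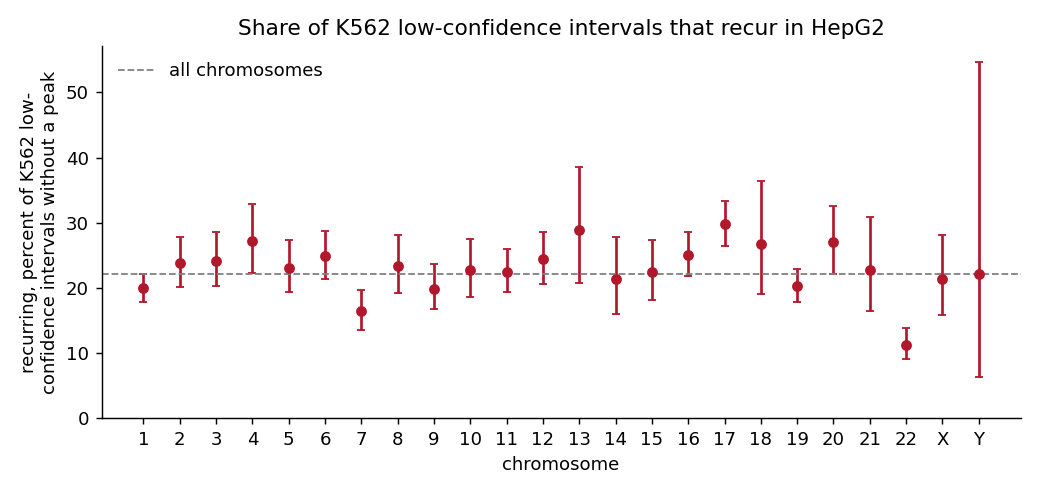
Percent of K562 low-confidence intervals without a K562 high-confidence peak that recurred in HepG2 (vertical axis) on each chromosome (horizontal axis), with 95% Wilson intervals as bars and the share over all chromosomes (22.1%) as a dashed line. Chromosome 22 (11.3%) lies lowest and chromosome 17 (29.8%) highest, and chromosome Y holds 9 intervals in all.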

How the data were processed

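Reads were trimmed by the authors (cutadapt 1.16) and aligned to hg19 (BWA 0.7.15), duplicates were removed (Picard 2.14.0, samtools 1.6), and the peaks of each replicate (MACS2 2.1.1) were merged (bedtools 2.26.0). The deposited lists give interval positions, pooled over the replicates of a line. From there, intervals were joined by overlaps of at least 1 bp and annotated on GRCh37 with GENCODE 44 lifted to build 37. Interval ends of all 65579 nuclear intervals lay within the GRCh37 chromosomes. Shares carry 95% Wilson intervals and differences Newcombe intervals, which cover the counting of intervals only. Classes were compared by two-sided Fisher's exact tests with Benjamini-Hochberg adjustment over each family of contrasts. The members and the lists were chosen with earlier results of these data known. Genes were named by list in order of shared stretch (at most 4 a list), plus the 20 longest among genes without another interval. Functions were tested on simulated data. Python 3.11.15, scipy 1.17.1, pysam 0.24.0 and numba 0.67.0 were used. Mitochondrial intervals, expression and open chromatin were not used here. The interval with the most motifs between genes is not reported here.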

Additional observations from a re-analysis of the deposited data

Results flagged for a closer look

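The contrast between recurring and line-only intervals differed between the lines. Measured on the HepG2 intervals, 2328 weak intervals met only weak K562 intervals, and 59.9% of them were at promoters, against 26.3% of HepG2-only intervals, an odds ratio of 4.20 (95% interval 3.84 to 4.59). On the K562 intervals the odds ratio was 2.30, and the ratio of the K562 to the HepG2 value was 0.549 (0.481 to 0.626). For CpG-island-like windows the odds ratios were 2.3 and 7.89, with a ratio of 0.287 (0.251 to 0.328). For the G4 motif they were 1.04 and 2.01, with a ratio of 0.520 (0.433 to 0.624). The recurring intervals of the 2 lines are largely the same loci, so these differences come with different line-only intervals, of which HepG2 had 15348 and K562 had 6973. The intervals are normal approximations on the log scale, treat the lines as independent and were not adjusted for the 3 contrasts.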

How the results depend on the processing

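The 11 results were recomputed under 74 alternatives, and 64 kept the direction and the side of the threshold or stayed within 1.5 times the count. Requiring 50% of both intervals to be covered lowered the number of recurring intervals from 2321 to 1394. Counting only genes with no other G4 interval upstream lowered the genes from 1369 to 715. The motif difference from K562-only intervals became -2.63 points in the window of 150 bases to each side of the centre and -2.48 points when weighted by width. With runs of at least 2 G it was 7.94 points (1.93 points when also weighted by width). The motif difference from common high-confidence intervals became 0.124 points when weighted by width, with 4.22 points at promoters and -8.66 points outside them. Those weighted differences rest on the widths found in both classes. The motif difference from K562-only intervals was 0.553 points over all intervals. It also turned to -0.350 points without intervals under 50 bp, -2.19 points at promoters and -1.03 points outside them. None of these 4 values passed the test. Weighted by width, the same difference was -6.16 points at promoters (-8.71 to -3.61) and -2.85 points outside them (-4.90 to -0.794), both ranges wholly negative. Outside promoters the CpG-island-like difference from K562-only intervals was 1.97 points and no longer passed the test. Leaving out chromosomes X, Y, 9 and 22, an alternative added after seeing the data, changed no call. The cause of these changes was not tested.

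No paired analysis was possible because each list pools its replicates and carries no value per sample, and for the same reason no replicate was left out. Without depth or peak height, weaker binding and shallower sequencing cannot be told apart, and a G4 motif missing from an interval does not show that no G4 formed there.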

Other observations

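The mitochondrial chromosome, left out above, held 18 of 19249 K562 and 20 of 28387 HepG2 low-confidence intervals. Of the high-confidence intervals it held 0 of 9205 in K562 (95% Wilson upper limit 0.0417%) and 29 of 8805 in HepG2 (0.329%, 0.229 to 0.473).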
